A study of Mus musculus with 6 samples.

Results

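Keratins build the intermediate filaments of epithelial cells, and 10 of them that mark the basal layer, the suprabasal layers and simple epithelium were followed in mouse tumours grown from a cutaneous squamous cell carcinoma line. This is a skin cancer of keratinocytes. The genes were Krt5, Krt14, Krt15, Krt10, Krt76, Krt17, Krt7, Krt8, Krt18 and Krt19. They were taken by symbol from the 37991 Ensembl genes of the count tables, which hold 54 keratin genes in all. They were selected on their measured levels in the same 6 libraries and on the Null against WT contrast, among them the reads of Krt76 in Null tumours alone. Differences of these 10 genes between the genotypes are therefore given as descriptions, and nothing is supported with them.

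The samples were 3 libraries of total RNA from tumours with Kindlin-1 knocked out (Null) and 3 from tumours expressing Kindlin-1 (WT). Kindlin-1 is an adaptor that binds integrin tails. The labels name squamous carcinoma as the cell line and the tumour as the tissue, give no sex, age, host strain or treatment, and do not say how the knockout was made or whether the null cells are 1 clone. The titles give Null libraries 2 and 3 a shared mouse number, and WT libraries 1 and 2 another, so n = 3 counts libraries, and a p-value here reflects only how far these libraries spread. For Null library 3 the number in the deposited file's name is not that of its title. Reads in genes came to 1138318, 31487255 and 5226493 in Null libraries 1 to 3, and to 1283566, 161711 and 15529242 in WT libraries 1 to 3. In WT library 2 a floor of 3 reads stood at 18.4 CPM (reads of a gene relative to the TMM-scaled reads in all genes). Fermt1, which encodes Kindlin-1, had 0, 2 and 2 reads in Null libraries 1 to 3, against 16, 2 and 1040 in WT libraries 1 to 3. In WT library 2 those reads are under the floor and do not check its label.

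Keratins work in pairs, since a filament needs an acidic type I and a basic type II chain. In the basal layer of skin Krt5 (type II) pairs with Krt14 (type I), and Krt15 is a further type I keratin of basal and hair follicle stem cells. Suprabasal cells of skin use Krt10 with Krt1, and the type II keratin Krt76 belongs to the suprabasal layers of the mouth, above all the palate. Krt17 is a type I keratin of skin appendages that injured epidermis also makes. Simple, single-layered epithelia use the type II keratins Krt7 and Krt8 with the type I keratins Krt18 and Krt19, and carcinomas can carry them too.

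The windows before the start sites of Krt76, Krt7, Krt8 and Krt18 are shown because the results turn on these genes: Krt76 had reads in Null libraries alone, Krt7 and Krt8 varied together, and Krt18, the usual partner of Krt8, did not follow it. Each line is the 250 bases before the RefSeq start, read 5′ to 3′ on the gene's strand, from build GRCm38.p6. Capitals mark matches, on either strand, to TATAAA (known for the TATA-binding protein), GGGCGG (for Sp1), TGANTCA (for AP-1) or GCCNNNGGC (for AP-2).
Krt76 (chr15:101892921-101893170, minus strand): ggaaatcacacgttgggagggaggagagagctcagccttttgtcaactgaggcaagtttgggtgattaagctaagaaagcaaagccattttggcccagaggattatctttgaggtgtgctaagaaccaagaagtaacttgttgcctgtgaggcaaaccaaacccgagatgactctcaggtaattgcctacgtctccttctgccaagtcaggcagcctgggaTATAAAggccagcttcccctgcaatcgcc
Krt7 (chr15:101412153-101412402, plus strand): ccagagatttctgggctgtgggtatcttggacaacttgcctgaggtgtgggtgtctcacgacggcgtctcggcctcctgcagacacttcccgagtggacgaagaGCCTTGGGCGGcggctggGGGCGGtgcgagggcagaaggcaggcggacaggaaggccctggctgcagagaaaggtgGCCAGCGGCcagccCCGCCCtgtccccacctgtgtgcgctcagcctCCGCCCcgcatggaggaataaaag
Krt8 (chr15:102004343-102004592, minus strand): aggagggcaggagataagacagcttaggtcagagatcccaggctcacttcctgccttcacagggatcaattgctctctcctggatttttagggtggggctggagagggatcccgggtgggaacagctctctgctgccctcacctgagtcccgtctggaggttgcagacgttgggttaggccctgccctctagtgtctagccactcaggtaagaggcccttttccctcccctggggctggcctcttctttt
Krt18 (chr15:102027966-102028215, plus strand): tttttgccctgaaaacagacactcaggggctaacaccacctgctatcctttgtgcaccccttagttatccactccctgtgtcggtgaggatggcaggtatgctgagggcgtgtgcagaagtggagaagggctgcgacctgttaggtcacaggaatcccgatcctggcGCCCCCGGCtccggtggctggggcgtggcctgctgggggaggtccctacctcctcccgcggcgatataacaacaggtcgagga

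The Krt76 window holds 1 TATAAA, starting 29 bases before the start site. The Krt7 window holds 4 matches to GGGCGG and 2 to GCCNNNGGC, and the leftmost match of each kind overlap. Krt18 has 1 match to GCCNNNGGC and Krt8 has no match to any of the 4 motifs. Windows were found for 7 of the 10 genes. Of these, 2 hold TATAAA, against 12.4% of 32851 windows of the same length, 1 holds GGGCGG (32.7% of all windows), 2 hold GCCNNNGGC (13.7%) and 0 hold TGANTCA (6.75%). A match is a description of the letters alone.

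All 10 keratins were low in these libraries beside Vim, the filament gene of mesenchymal cells. Together they took 135, 72.8 and 116 CPM in Null libraries 1 to 3, against 127, 123 and 56.1 CPM in WT libraries 1 to 3. The groups overlapped, and the sum was lowest in the deepest library of each genotype. Vim stood at 4976 ± 211 CPM in Null tumours and 3192 ± 1953 CPM in WT tumours (SD, n = 3). The list of 15 epithelial junction and splicing markers summed to 10.5 to 28.7 CPM in Null libraries and to 7.24 to 18.4 CPM in WT libraries. The 18.4 CPM belongs to WT library 2 and equals its floor of 3 reads. Of the list 1 member passed the expression filter. That member was Cdh1 (E-cadherin), at 5.5 ± 1.69 CPM in Null and 4.18 ± 1.84 CPM in WT tumours, with 1 read in WT library 2. Epcam, an adhesion molecule of epithelia, had 0, 56 and 19 reads in Null libraries and 3, 0 and 5 in WT libraries. On CPM these were 0, 1.77 and 3.74 in Null libraries and 2.34, 0 and 0.312 in WT libraries, so the groups overlapped. The carcinoma label thus went with low but detected epithelial genes in all 6 libraries, though WT library 2 held few reads of them. In bulk tumour RNA, fewer keratin-bearing cells and less keratin RNA per cell cannot be told apart.

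**Figure D1:**
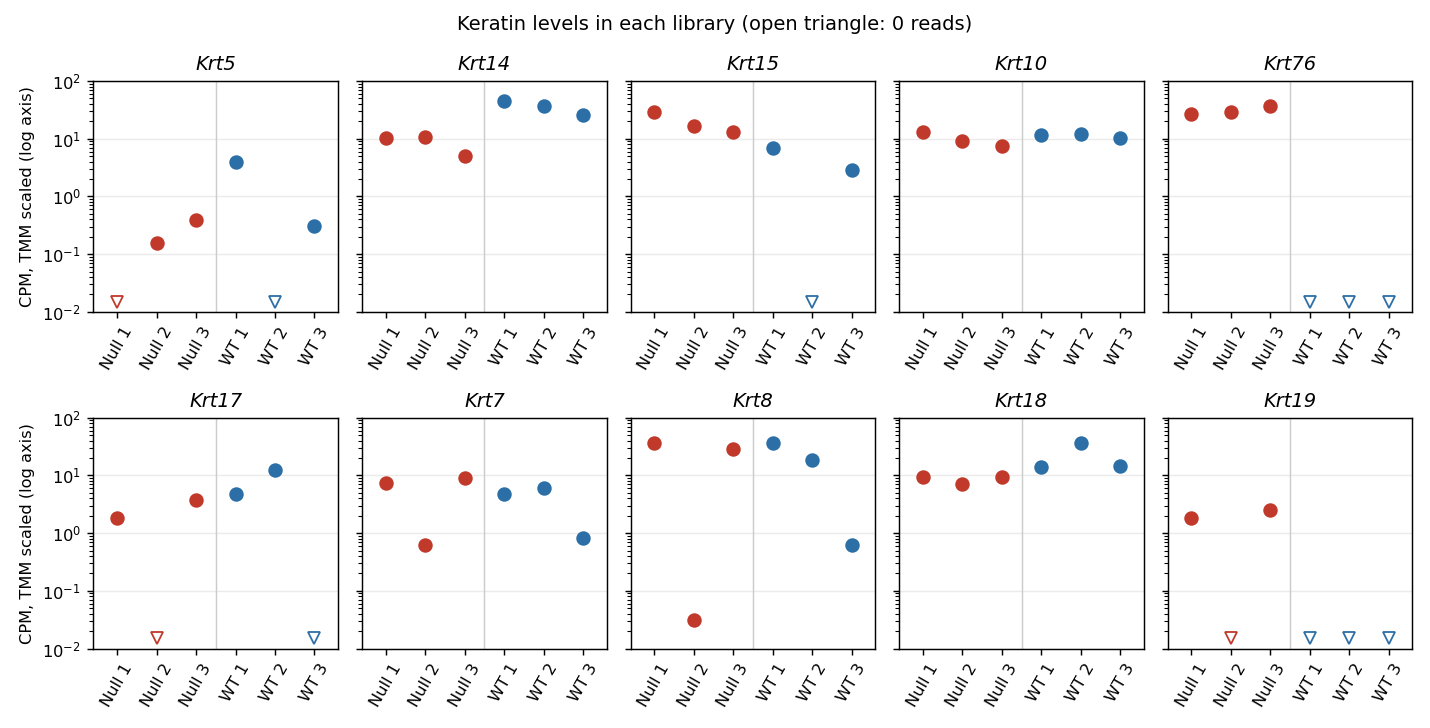
CPM (TMM scaled, log axis) of each of the 10 keratins in the 3 Null (red) and 3 WT (blue) libraries, 1 point per library; an open triangle marks 0 reads. Krt76 has reads in Null libraries alone, Krt14 is lower and Krt15 higher in Null, and Krt8 lies near 0 in Null library 2 and WT library 3.

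The make-up of the 10 differed more between the genotypes than their sum. Since they were chosen with this contrast known, this is a description alone. Levels per kilobase of transcript, on CPM per kb, put Krt76 first in Null tumours at 13.4 ± 2.39, then Krt15 at 11.4 ± 4.76 and Krt8 at 11.1 ± 9.84, then Krt18 (5.94 ± 0.95), Krt14 (5.07 ± 1.78) and Krt10 (4.69 ± 1.33; SD, n = 3). The leading 3 did not differ from each other beyond their spread, and neither did the following 3. In WT tumours Krt14 led at 21.3 ± 5.59 CPM per kb, followed by Krt18 at 15.2 ± 9.05, Krt8 at 9.36 ± 9.01, Krt10 at 5.49 ± 0.44, Krt17 at 3.65 ± 4 and Krt15 at 1.95 ± 2.08, and neighbours in this order overlapped. Krt76 took 16.5%, 33.1% and 27.8% of the 10 keratins in Null libraries 1 to 3 and 0% in each WT library. Krt14 took 8.54%, 16.4% and 5.2% in Null libraries and 37.9%, 30.1% and 46.9% in WT libraries. The 30.1% of WT library 2 rests on 6 reads of Krt14.

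**Figure D2:**
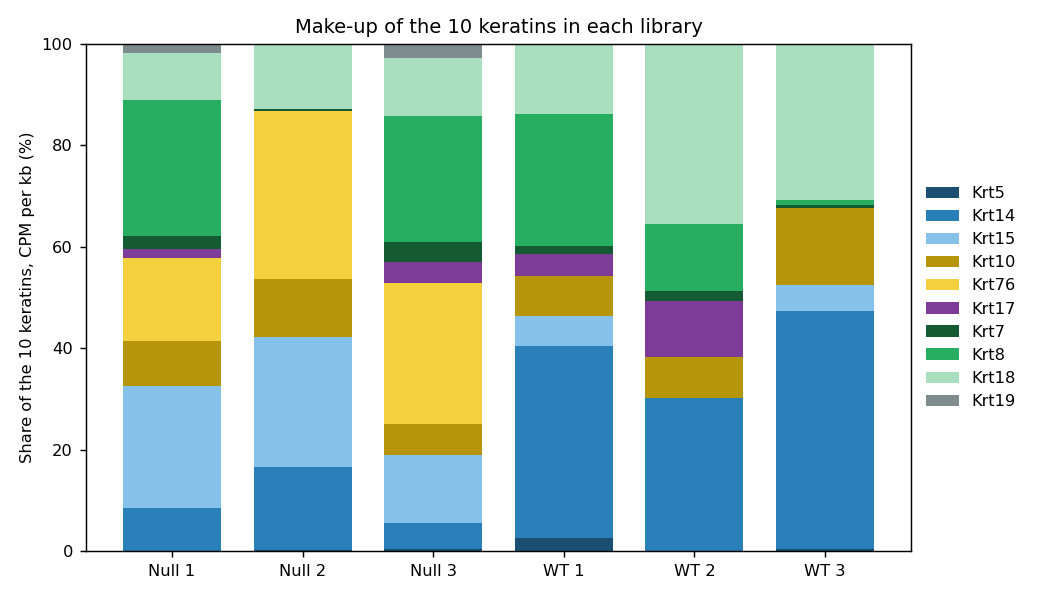
Share of each keratin in the summed level of the 10 (CPM per kb, percent), 1 bar per library, Null libraries left of WT libraries. Krt76 and Krt15 fill much of the Null bars and Krt14 much of the WT bars, while Krt8 is all but missing in Null library 2 and WT library 3.

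In edgeR's quasi-likelihood test over 11887 genes, with Benjamini-Hochberg adjustment at 0.05, 8 of the 10 keratins passed the expression filter, and Krt5 and Krt19 did not. Of the 8, Krt76 and Krt15 passed as higher and Krt14 as lower in Null tumours. Over all tested genes 5.79% passed in either direction, 2.26% as higher and 3.52% as lower. The median log2 fold change, Null minus WT, was 0.22 over the 8 and 0.01 over all tested genes. The groups did not overlap for 4 of the 8, Krt18 besides these 3, and for 30.5% of all tested genes. Since the keratins were picked with this contrast known, nothing is read from these counts. Without any 1 library, between 2 and 3 of the 10 passed.

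**Figure D3:**
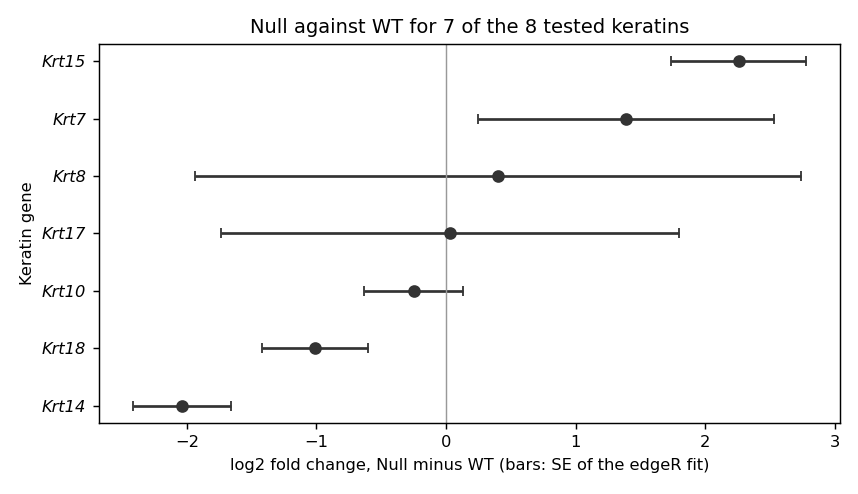
Log2 fold change (Null minus WT) of 7 of the 8 tested keratins with its standard error from the edgeR fit over all genes. Krt76 is left out because its fitted value depends on the prior count; Krt15 lies at 2.26, Krt14 at -2.04, and the bars of Krt8 and Krt17 span 0 widely.

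Among the basal keratins, Krt14 (ENSMUSG00000045545) was at 10.1, 10.6 and 5.12 CPM in Null libraries 1 to 3, against 45.3, 36.9 and 26.3 CPM in WT libraries 1 to 3. Every WT library lay above every Null library. The log2 fold change was -2.04 (SE 0.38), or 4.1-fold lower in Null, and ranged from -2.38 to -1.72 with 1 library left out. With the mouse number as a random effect in limma it was -1.50, and the call was not made (adjusted p = 0.0502). Krt15 (ENSMUSG00000054146) went the other way, at 28.6, 16.5 and 13.2 CPM in Null libraries, against 7.03, 0 and 2.93 CPM in WT libraries. All Null values lay above the WT values, but those of Null libraries 2 and 3 were under the floor of WT library 2, so its 0 reads do not separate them. The log2 fold change was 2.26 (SE 0.52), and the call was not made without Null library 1 (1.92) or WT library 3 (1.56). Krt5 (ENSMUSG00000061527), the partner of Krt14, was nearly absent, with 0, 5 and 2 reads in Null libraries and 5, 0 and 5 reads in WT libraries. Where both were seen, Krt14 exceeded Krt5 per length 86.2-fold and 16.8-fold in Null libraries 2 and 3, against 15-fold and 109-fold in WT libraries 1 and 3.

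Of the suprabasal keratins, Krt76 (ENSMUSG00000075402) had 29, 913 and 189 reads in Null libraries 1 to 3 and 0 in each WT library. This made 26.7, 28.9 and 37.2 CPM in the Null libraries, a narrow range over a wide span of depth. Against a floor of 3 reads over the WT group Krt76 was at least 180-fold higher in Null, and at least 14.9-fold without WT library 3, whose depth carries the bound. Krt10 (ENSMUSG00000019761) overlapped between the genotypes, at 12.9, 9.06 and 7.48 CPM in Null libraries, against 11.7, 12.3 and 10.5 CPM in WT libraries. Its log2 fold change was -0.25 (SE 0.38). Krt1, the type II partner of Krt10 in skin, had 0 reads in all 6 libraries. In Null tumours Krt76 exceeded Krt10 per length 1.88-fold, 2.89-fold and 4.5-fold. Other suprabasal genes were at or near 0, and of 20 cornified envelope and suprabasal genes in the files 9 had 0 reads in all libraries. The list summed to 2.76, 6.66 and 7.28 CPM in Null libraries, against 18, 12.3 and 11.4 CPM in WT libraries. The 12.3 CPM of WT library 2 is under its floor. The 1 tested member of the list was Sbsn (suprabasin), with 1 read in WT library 2. It was at 1.51 ± 0.813 CPM in Null and 6.36 ± 1.36 CPM in WT tumours (SD, n = 3, edgeR adjusted p = 0.0826).

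Among the simple keratins, Krt8 (ENSMUSG00000049382) split the libraries within each genotype. It stood at 36.8, 0.0317 and 28.3 CPM in Null libraries 1 to 3, against 35.9, 18.4 and 0.624 CPM in WT libraries 1 to 3. Null library 2, the deepest of all, had 1 read of Krt8 (95% exact Poisson interval 0.000802 to 0.177 CPM), and Null library 3, which shares its mouse number by title, had 144 (23.9 to 33.4 CPM). These intervals cover counting error only. For ratios between libraries, 0 reads in the second library were set to 1 read, so genes with 0 reads there could rank below Krt8. Among 9827 genes with at least 10 CPM in Null library 3, the ratio of Null library 3 to Null library 2 was on this scale highest for Krt8, at 894, with a median of 1.01. For the ratio of WT library 1 to WT library 3, Krt8 had rank 2 of 9913 genes, at 57.6, with a median of 1.02. The other two such ratios were 1163 for Null library 1 to Null library 2, rank 4 of 9771 genes, and 29.5 for WT library 2 to WT library 3, rank 98 of 9817, where WT library 2 had 3 reads. The fitted log2 fold change of 0.4 between the genotypes had an SE of 2.34 and so has no clear direction.

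Krt7 (ENSMUSG00000023039) and Krt17 (ENSMUSG00000035557) were low in the same libraries. Krt7 was at 7.37, 0.634 and 9.05 CPM in Null libraries, against 4.68, 6.14 and 0.811 CPM in WT libraries. Its lowest value in each genotype fell in the library where Krt8 was lowest, and the groups overlapped (log2 fold change 1.39, SE 1.14). Krt17 had 2, 0 and 19 reads in Null libraries, against 6, 2 and 0 in WT libraries, so its zeros lay in Null library 2 and WT library 3, the deepest of each group. Upper limits of the 95% exact Poisson intervals were 0.117 CPM in Null library 2 and 0.23 CPM in WT library 3. The 2 reads of Null library 1 made 1.84 CPM, with an interval of 0.223 to 6.66 CPM that overlaps that of WT library 3. The log2 fold change of Krt17 was 0.03 with an SE of 1.77. Krt19 (ENSMUSG00000020911) had 2, 0 and 13 reads in Null libraries and 0 in each WT library. The mean CPM of the Null libraries was at least 8.54-fold over the WT group floor of 0.172 CPM. Null library 2, the deepest of all, lay under that floor, with an upper limit of 0.117 CPM, so the groups overlapped. The bound ends without WT library 3 (0.706), and without Null library 3 the 2 reads left are under the floor of 3. A direction for Krt19 is therefore not clear.

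Krt18 (ENSMUSG00000023043) did not share the low values of its partner in Null library 2 and WT library 3. It stood at 9.21, 6.97 and 9.44 CPM in Null libraries, against 14.1, 36.9 and 14.6 CPM in WT libraries. All Null values were under the WT values, with a log2 fold change of -1.01 (SE 0.41) that did not pass in the fit over all genes, and the 36.9 CPM of WT library 2 rests on 6 reads. Per length, the ratio of Krt8 to Krt18 was 2.94, 0.00334 and 2.2 in Null libraries 1 to 3, and 1.88, 0.367 and 0.0314 in WT libraries 1 to 3. In a search of annotated transcripts, a near-identical pseudogene was found for Krt8 alone among the 10. Copies outside the annotation were not searched. In the GENCODE transcripts, 51.8% of the Krt8 transcript matched 2 other genes at 95% identity or more over at least 100 bases. Of these 1 was a pseudogene, Krt8-ps, which gave the longest match, 941 bases at 98.6%. Krt14, Krt15, Krt10, Krt17, Krt7, Krt18 and Krt19 had no such match, and Krt5 and Krt76 matched only short RNA genes annotated within them. Reads with several alignments, which are counted for no gene, were 34.9%, 34% and 32.9% of all reads in Null libraries and 34.1%, 35.9% and 40% in WT libraries. Their part in the Krt8 values was not tested.

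Across the 6 libraries the keratins that varied together most closely were Krt7 and Krt8, with a Pearson r of log2 CPM of 0.96, followed by Krt17 with Krt8 (0.89) and Krt17 with Krt7 (0.89). With any 1 library left out, these lay at 0.95 to 0.99, 0.83 to 0.96 and 0.83 to 0.94. The 6 points share depth and genotype, so the values are descriptions. The strongest opposite courses were Krt15 with Krt18 (-0.96) and Krt14 with Krt76 (-0.94). Each sets a keratin higher in one genotype against a keratin lower in it, though Krt18 did not pass. With any 1 library left out, these lay at -0.98 to -0.81 and -0.96 to -0.93. For the textbook partners Krt8 and Krt18 r was 0.3, and it changed sign without Null library 2 (-0.15). The r of Krt5 with Krt14 was 0.38, but Krt5 had at most 5 reads in any library, so that value rests on the prior count and depth and does not show whether these partners varied together. Of the 28 pairs among the 8 tested keratins 3 (10.7%) reached an r of 0.8, against 9.29% of pairs among 3655 tested genes in the same range of CPM. An r of -0.8 or below was reached by 2 (7.14%), against 5.57%. Both shares are near that background.

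**Figure D4:**
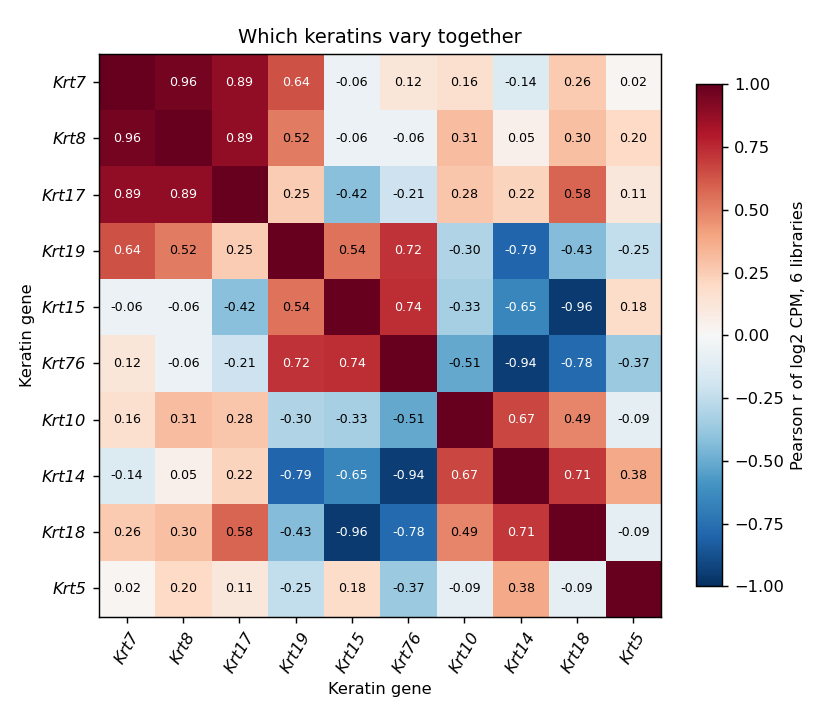
Pearson r of log2 CPM over the 6 libraries for each pair of the 10 keratins, both axes listing the genes. Krt7, Krt8 and Krt17 form a block of 0.89 to 0.96, and Krt15 and Krt76 run against Krt14 and Krt18.

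Outside the 10, the genes whose pattern was most like the sum of Krt8 and Krt18, among 9966 genes with at least 10 CPM on average, were Abracl (r = 0.98), Btg2 (0.96), Qsox1 (0.95), Fos (0.95) and Rpl23a (0.93) over the 6 libraries. Rpl23a, a ribosomal protein gene, had 143, 13.3 and 118 CPM in Null libraries, against 73.4, 86 and 26.3 CPM in WT libraries. It was lowest in the same libraries as Krt8, and 76.2% of its transcript matched other genes, 19 of them pseudogenes. With Krt8 alone, chosen after its values were seen, Rpl23a (0.97), Abracl (0.97), Rps23 (0.95), Rpl27a (0.94) and Serf2 (0.94) came nearest, and 3 of these encode ribosomal proteins. The matched part of the transcript was lower than in Rpl23a for Abracl (56.9%), Rps23 (54.2%), Rpl27a (19.3%) and Serf2 (60.4%). This share was not taken over genes at large, and the part of such matches in the likeness was not tested. The sum of Krt5 and Krt14 ran closest to Fbn1, Tnnt3, Acta1, Fstl1 and Tcap, each with an r of 0.99 or 1 after rounding. This likeness was not particular to them, since 152 of the 9966 genes had an r of at least 0.9 with that sum. For the sum of Krt8 and Krt18 there were 10. Tnnt3, Acta1 and Tcap are genes of striated muscle. Acta1, skeletal actin, stood at 25.8, 39.2 and 11.4 CPM in Null libraries, against 413, 221 and 138 CPM in WT libraries. Of 9 tested skeletal muscle markers 8 fell, against 3.52% of all tested genes, with a median log2 fold change of -3.32. The list summed to 29.3 to 91.7 CPM in Null libraries and 407 to 1131 CPM in WT libraries, beside the lower Krt14 of the Null tumours. With the mouse number as a random effect in limma, 4 muscle markers fell. Their part in the Krt14 values was not tested.

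Mesothelium and hair follicle or gland cells also carry some of these keratins. Of 6 mesothelium markers Msln (mesothelin) was abundant. It stood at 304, 179 and 238 CPM in Null libraries, against 315, 319 and 394 CPM in WT libraries. Within the Null group it was lowest in Null library 2, as Krt8 was. Within the WT group it was highest in WT library 3, where Krt8 was lowest. Upk3b and Wt1, which define mesothelium more closely, had 2 and 17 reads over the Null group, and 0 and 11 over the WT group. On CPM Wt1 was at 0.73 ± 1.08 in Null and 0.468 ± 0.413 in WT tumours (SD, n = 3). Of 9 hair follicle and gland markers 2 were tested, Sox9 and Aqp5. Sox9, a follicle stem cell factor, fell to 10 ± 4.19 CPM in Null tumours, against 28.4 ± 4.13 CPM in WT tumours (SD, n = 3, edgeR adjusted p = 0.019). That call was lost without Null library 2 (0.0611) or Null library 3 (0.102), and with libraries of a shared mouse number summed (0.0636). Aqp5, the most abundant of the list, overlapped between the groups and did not pass (edgeR adjusted p = 0.485). It was at 350 ± 65.7 CPM in Null and 452 ± 137 CPM in WT tumours (SD, n = 3). Shh and Mc5r of that list had 0 reads in all libraries. Their part in the keratin values was not tested. Of the other cell type lists, 0 of 7 tested macrophage and 0 of 6 tested endothelium markers passed, and of 7 tested fibroblast markers 2 rose and 1 fell. The calls in the mesenchymal list numbered 1 higher and 1 lower of 8 tested, those of T and NK cells 1 higher of 3, and those of adipocytes 1 lower of 2. Over all tested genes 2.26% passed as higher and 3.52% as lower, and nothing is read from 1 call in so short a list. Without Null library 1 or Null library 3, the calls numbered 1 in the fibroblast list and 0 in the mesenchymal list.

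The remaining 44 keratins were nearly silent. Of these, 16 had 0 reads in all 6 libraries, 22 had 1 to 9 reads in total and 6 had at least 10. Krt80, a type II keratin of many epithelia, was at 4.61, 5.32 and 4.92 CPM in Null libraries, against 3.12, 18.4 and 2.43 CPM in WT libraries, where 18.4 CPM stands for 3 reads. Krt13 and Krt4, partners in the suprabasal layers of mouth and oesophagus, had 126 and 110 reads over the Null group and 19 and 3 over the WT group. Krt13 was at 3.68, 3.07 and 4.92 CPM in Null libraries, against 3.12, 0 and 0.936 CPM in WT libraries. Krt4 was at 4.61, 1.24 and 13 CPM in Null libraries, against 1.56, 0 and 0.0624 CPM in WT libraries. The groups overlapped for both. Krt80 (log2 fold change 0.55, SE 0.64) and Krt13 (1.5, SE 0.7) were the 2 that were tested, and neither passed (edgeR adjusted p = 0.618 and 0.205). Krt20, Krt79 and Krt83 had between 10 and 20 reads each.

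In a list of plakins and plaque proteins of desmosomes and hemidesmosomes, most of which link keratin filaments to these junctions, the calls were all lower in Null tumours. Of 10 tested members 4 fell and 0 rose, with a median log2 fold change of -0.86, against 0.01 over all tested genes, of which 3.52% fell. The count was 1 without Null library 1 or Null library 3, and 2 without WT library 3 or with libraries of a shared mouse number summed. Pkp1 (plakophilin-1), a desmosomal plaque protein of stratified epithelium, had 3.68, 6.78 and 4.33 CPM in Null libraries, against 31.2, 43 and 25.2 CPM in WT libraries. The groups stood well apart (log2 fold change -2.47, SE 0.37, edgeR adjusted p = 0.00289), and the call was made in all 6 fits with 1 library left out. Pkp2 (plakophilin-2; -1.71), Dst (dystonin; -1.36) and Macf1 (a plakin that links actin and microtubules rather than keratin; -1.04) fell too, with edgeR adjusted p of 0.0209, 0.0246 and 0.0462. Those calls were lost without 4, 3 and 5 of the 6 libraries in turn, with highest adjusted p of 0.17, 0.0854 and 0.153. Dst and Macf1 are also expressed in muscle, and the muscle markers were lower in the same libraries. The part of muscle in the Dst and Macf1 values was not tested. Plec (plectin), the most abundant linker, was at 509 ± 240 CPM in Null and 1044 ± 293 CPM in WT tumours (SD, n = 3, adjusted p = 0.126 in edgeR). Ppl (periplakin) alone among the tested members had a positive log2 fold change (1.54, SE 0.43), and it did not pass (edgeR adjusted p = 0.052). It had 12, 17.6 and 16.9 CPM in Null libraries, against 8.59, 6.14 and 4.12 CPM in WT libraries.

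Fam83h, which recruits casein kinase 1 to keratin filaments, was the 1 of 8 tested keratin-binding proteins that fell, against 3.52% of all tested genes. It had 12.9, 18.6 and 17.3 CPM in Null libraries, against 60.1, 67.6 and 54.8 CPM in WT libraries, and no library of either group approached the other (log2 fold change -1.8, SE 0.27, edgeR adjusted p = 0.00268). This call was made in all 6 fits with 1 library left out. Of 13 tested regulators of keratin transcription 2 rose and 0 fell, with a median log2 fold change of 0.46, against 0.01 over all tested genes, of which 2.26% rose. The count was 1 in DESeq2, with a stricter filter, with the mouse number as a random effect and when any 1 library other than WT library 2 was left out. Ehf, an ETS factor of epithelia, rose to 31.1 ± 9.54 CPM in Null tumours, against 6.73 ± 4.81 CPM in WT tumours (SD, n = 3; log2 fold change 2.8, SE 0.43, edgeR adjusted p = 0.00308), also in all 6 such fits. Fosl1, an AP-1 subunit, rose on the edgeR fit (3.51, adjusted p = 0.0365) while its values overlapped, a call lost without Null library 1 (0.135) or WT library 1 (0.0634) and in DESeq2 (0.0669). Without Null library 2, Null library 3 or WT library 3 it did not pass the expression filter, so 1 of 6 such fits made the call. Trp63, the master factor of stratified epithelium that switches on Krt5 and Krt14, stood at 27.6, 21.5 and 19.7 CPM in Null libraries, against 4.68, 18.4 and 21.8 CPM in WT libraries (edgeR adjusted p = 0.461). Its groups overlapped, and every library held reads of it.

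Of the other intermediate filament genes 7 were tested, and 1 fell, against 3.52% of all tested genes. This was Des (desmin), the filament of muscle, at 14 ± 3.38 CPM in Null and 172 ± 92.1 CPM in WT tumours (SD, n = 3, edgeR adjusted p = 0.00023). Vim did not pass (log2 fold change 0.65, SE 0.45, edgeR adjusted p = 0.382), and WT library 3, at 1028 CPM, lay apart from the 3725 and 4823 CPM of WT libraries 1 and 2. Lmna, the nuclear lamin A/C, was at 835 ± 100 CPM in Null and 663 ± 190 CPM in WT tumours (SD, n = 3; edgeR adjusted p = 0.487).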

How the data were processed

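Whole-number read counts per Ensembl gene were deposited, 1 table per library. Per the submitters' processing notes TopHat2, Cuffdiff, DESeq2 and the build mm9 were used, with no version or role; no source used here names the counting program, its use of strand or the annotation, so antisense reads cannot be told apart. Lines for reads in no gene (4.63% to 12%), ambiguous reads (1.72% to 2.11%) and multiple alignments (32.9% to 40%) were left out. Symbols came from GENCODE M21, a later build, for 32919 of 37991 identifiers (86.6%); lengths are those of the longest transcript. Null was compared with WT in edgeR 4.0.16 (R 4.3.3; TMM, default expression filter, robust quasi-likelihood test, adjusted p 0.05), tested on simulated data. Log2 CPM for correlations used a prior count of 2. Alternatives were DESeq2 1.42.0, limma 3.58.1 with mouse number as a random effect, other scalings and filters, summed libraries of a shared mouse number, and each library left out. Near copies were searched with blastn. The 10 keratins and all lists were chosen with earlier results of these data known. Named genes were the 10 keratins, other keratins with at least 10 reads, and the 5 genes most like each of 2 keratin pairs. List members were named where they passed or were among the most abundant (cell type lists mostly as counts). Further genes, among them Trp63, Epcam, Sbsn, Msln, Upk3b, Wt1, Cdh1 and Ppl, were named after their values were seen.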

Additional observations from a re-analysis of the deposited data

How the results depend on the processing

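No paired analysis was possible because no Null library shares a mouse number with a WT library. With 1 library left out, the genes called over the whole table numbered 179 to 855 (688 with all), the list members called besides the 10 keratins 14 to 20 (24), and the keratin pairs with r of at least 0.8 3 to 6 (3). The keratins called stayed at 2 or 3 under every alternative. Krt76 passed in all of them. Krt14 missed the threshold when the mouse number entered limma as a random effect (adjusted p = 0.0502, log2 fold change -1.50). Krt15 missed it without Null library 1 (edgeR adjusted p = 0.107) and without WT library 3 (0.204). Directions turned for keratins without a clear one. The log2 fold change of Krt17 was -1.52 with DESeq2, -0.01 with library totals, -0.61 with no filter, -1.16 with shared mouse numbers summed, -2.27 with the random effect and -0.33 to 2.71 with 1 library left out (in the fits where it passed the filter). That of Krt8 was -4.17 with the random effect and -0.84 to 4.26 with 1 library left out, and that of Krt7 was -0.80 with the random effect. The r of Krt8 with Krt18 was -0.15 to 0.45, and that of Krt5 with Krt14 -0.40 to 0.68, with 1 library left out. The cause was not tested. The depth of WT library 2, where 3 reads make 18.4 CPM, limits every keratin there.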
